A study of Mus musculus with 3 samples.

Results

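The regions described here are 313 peaks of chromatin recovered with probes for the RNA Pvt1. Each peak had its summit within 5000 bp, on either side, of the start of an annotated gene. They came from 1676 peaks in all, 177 of the 962 peaks (18.4%) recovered with odd-numbered probes and 136 of the 714 (19.0%) recovered with even-numbered probes. Peaks that overlapped by at least 1 bp were joined into sites. The 313 peaks formed 231 sites, of which 82 were found with both probe sets, 95 with the odd set alone and 54 with the even set alone. Over the whole lists, 47.6% of odd and 64.3% of even peaks overlapped a peak of the other set. The rule used only position, and 2 peaks on chromosome Y and 6 peaks overlapping the Pvt1 gene itself were left out.

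All material came from C2C12, an established line of mouse myoblasts, fixed with glutaraldehyde, with no genotype or treatment that differed between samples. Chromatin was recovered by ChIRP, in which biotinylated DNA oligonucleotides that hybridise to an RNA pull down the RNA together with the DNA near it. The groups were 1 sample recovered with the 9 odd probes, 1 recovered with the 9 even probes (each probe 20 bases long), and 1 of unprecipitated DNA that served as the peak caller's background. Recorded fragment lengths were 50 to 130 bp for the precipitated samples and 400 bp for the unprecipitated DNA. With 1 sample in each probe set there were no replicates, so no value below has a replicate error and no difference was tested. The share of a list is given with a 95% Wilson interval, which covers counting error only. DNA peaks hold no expression values, so the myoblast label was not checked against marker genes.

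Pvt1 is a long non-coding RNA encoded beside the Myc oncogene and is best known for its links to Myc and to cancer. Long non-coding RNAs can act where they are made or at distant sites on chromatin, and ChIRP was designed to map such sites. The idea behind splitting probes into an odd and an even set is that a site bound through the RNA should be recovered with both, while DNA captured by a single probe should appear with only 1 of them. Gene starts are of interest because promoters, the stretches from which transcription begins, lie there.

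Each peak rested on few sequenced fragments, which the caller counts as tags. Per the file headers, 14203 of 1310893 odd tags (1.08%) and 12715 of 1352067 even tags (0.940%) remained after duplicates were removed, against 5104779 of 5375267 tags of the unprecipitated DNA. The tag size was 105 bp in the odd and 54 bp in the even library. Height is given as the pileup, the number of tags over the summit after each was extended to 147 bp.

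The 2 tallest regions found with both sets are shown first, because the letters at their ends recur across the list, with the site at Terc, of 4 odd and 5 even tags, as one of lower height. Sequences are from GRCm38 (mm10), written 5′ to 3′ in lower case. Capitals mark any of 20 octamers that were the commonest near the ends of peaks outside this list, read from the end inward. The first is the whole site 185 bp upstream of Commd8, which codes for a COMM-domain protein of endosomal sorting, at chr5:72168312-72168479 on the plus strand.
Commd8: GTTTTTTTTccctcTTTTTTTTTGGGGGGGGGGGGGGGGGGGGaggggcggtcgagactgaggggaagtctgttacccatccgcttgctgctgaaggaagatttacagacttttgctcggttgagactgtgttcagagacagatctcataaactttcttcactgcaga
The second is the whole site 4250 bp downstream of the start of the pseudogene Gm18428, at chr3:76037366-76037522 on the plus strand.
Gm18428: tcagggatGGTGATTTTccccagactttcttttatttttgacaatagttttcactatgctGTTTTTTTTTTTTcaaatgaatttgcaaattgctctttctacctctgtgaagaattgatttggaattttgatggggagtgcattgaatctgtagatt
The third is the site 236 bp upstream of Terc, the RNA template of telomerase, at chr3:96415014-96415165 on the minus strand, which is the strand of the gene. Its T run begins beyond the first 15 bases and was not counted as an end sequence.
Terc: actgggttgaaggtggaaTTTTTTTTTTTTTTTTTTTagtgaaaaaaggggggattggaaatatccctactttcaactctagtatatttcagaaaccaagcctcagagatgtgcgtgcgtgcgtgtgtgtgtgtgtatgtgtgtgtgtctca

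The same letters can be seen at a glance when one end of several sites is set side by side. The next 4 lines give the 30 bases at 1 end of sites found with both probe sets. They are at chr1:162573886-162573915 (minus strand), chr19:26881170-26881199 (minus strand), chr9:39296836-39296865 (minus strand) and chr14:77033626-77033655 (plus strand).
Vamp4: aaaaGAGTGATTTCCCCagaattctgcatg
Gm815: cttagtaAGTGATTTCCCCagaactaaatg
Olfr947-ps1: gaaggatAGTGATTTCCCCcaaatgttctt
Ccdc122: aagTGAGTGATTTCCCCccttttattagac
The following pair, from sites also found with both sets, shows runs of T that pass into G. They are at chr5:36593568-36593597 (minus strand) and chr3:40946418-40946447 (plus strand).
Tbc1d14: TTTTTTTTTTTTTTTTTTTTTGGGGGGGGa
Larp1b: TTTTTTTGGGGGGGGGGGGGGGGagttgtt
Runs of G stood at the ends of the 3 sites below, found with the even set alone. They are at chr16:93686732-93686761, chr5:136982796-136982825 and chr11:62954692-62954721, all on the minus strand.
Cbr3: tgtgcGGGGGGGGGGGGGGGGGGGGGGGGG
Plod3: GGGGGGGGGGGGGGGGtGGGGGGGGGGGtg
Cdrt4: cGGGGGGGGGGGGGGGGGGGGaGGGGGGGG
The site 406 bp upstream of Gm29797, with 6 odd and 5 even tags, held none of the 20 octamers at the end shown, chr2:181656709-181656738 (minus strand), though the shorter run TTTCCC is in it.
Gm29797: ttggaatttcccagacttccatcactggcc

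The share of peaks near gene starts was close to the share of the genome that lies near them. Windows of 5000 bp on either side of all gene starts covered 17.1% of the assembled bases and held 18.8% of the 942 odd and 19.5% of the 699 even peaks on the same chromosomes. At 2000 bp the windows covered 7.48% and held 8.17% and 8.44%, and at 10000 bp they covered 30.0% and held 30.5% and 32.3%. The sites lay within 5000 bp of the starts of 299 genes, 0.555% of 53843, and 135 of these genes were protein-coding. More than 1 gene start lay within reach of 59 sites, with at most 4.

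The 2 commonest kinds of gene nearest to the sites took shares close to those in the annotation. A protein-coding gene was nearest to 95 sites (41.1%, where 40.4% of annotated genes are protein-coding), and a processed pseudogene, a copy of a messenger RNA reinserted in the genome, to 42 sites (18.2% against 18.3%). Smaller classes lay on either side of their annotation share. Transcripts that await experimental evidence were nearest to 20 sites (8.66% against 5.96%), antisense RNAs to 17 (7.36% against 5.49%), long intergenic RNAs to 17 (7.36% against 9.85%) and microRNA genes to 7 (3.03% against 4.08%). Unprocessed pseudogenes were nearest to 3 sites (1.30% against 3.63%). Both probe sets found 35.8% of the sites nearest to protein-coding genes, 33.3% of those nearest to processed pseudogenes and 36.2% of the others. No 2 sites had the same nearest gene. Summits lay in introns at 105 sites, between genes at 85 and in exons at 41, of which 5 were in coding and 21 in untranslated parts.

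The sites lay upstream and downstream of gene starts in nearly equal numbers. The summit was upstream at 112 of 231 sites (48.5%, interval 42.1 to 54.9), where 49.3% of the bases within 5000 bp are upstream. The last 1000 bp before a start held 33 sites, 15 of them found with both sets, and the first 1000 bp after it held 28, of which 6 were found with both. These counts correspond to 0.673 and 0.559 sites per Mb, and the other bins of 1000 bp held 0.395 to 0.596. Both sets found 35.5% of all 231 sites. In the other bins they found from 5 of 24 sites (1000 to 2000 bp upstream) to 14 of 26 (2000 to 3000 bp downstream). Within 100 bp of a start lay 7 sites, within 500 bp 33, within 1000 bp 61 and within 2000 bp 105. At the edge of the rule, the outermost peaks were near Rpl37rt, at 4919 bp with 3 even tags and 4915 bp with 5 odd tags, and near Gm14093, at 4908 bp with 4 odd tags. The first peaks beyond it were near Bend5 at 5025 bp (4 odd tags), Gm11799 at 5087 bp (3 even tags) and Gm43295 at 5148 bp (5 even tags).

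**Figure D1:**
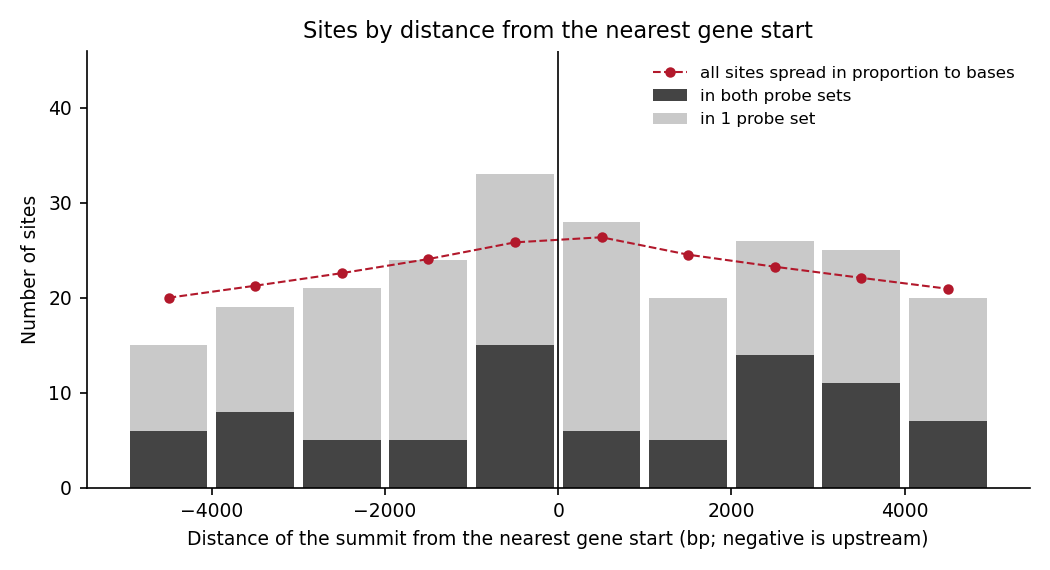
Number of sites (vertical axis) in bins of 1000 bp from the nearest gene start (horizontal axis, negative values upstream), with sites of both probe sets in dark grey and of 1 set in light grey. The dashed line spreads the 231 sites in proportion to the bases in each bin; the bin just upstream of the start holds 33 sites, the most of any bin.

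Peaks near gene starts had the same median height as those elsewhere. The median pileup was 4 tags in both sets, near starts and farther away. Near starts it ran from 3 to 13 in the odd and from 3 to 17 in the even set, and 48.0% of odd and 48.5% of even peaks had only 3 tags. A pileup of 5 or more was reached by 58 odd peaks (32.8%, where the background over all odd peaks was 28.4%) and 41 even peaks (30.1%, background 31.5%). The fold enrichment given by the authors' caller, a ratio to its background estimate, ran from 3.91 to 13.7 in the odd and from 3.91 to 17.6 in the even set. It nearly restated the pileup and is not a separate measure of height. At 8 odd tags Gm815 and Olfr947-ps1 both had 8.80. At 8 even tags Mir7675 had 8.63 and Larp1b 8.82. Peak lengths were 147 to 270 bp with a median of 148 in both sets, next to the 147 bp to which each tag had been extended.

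Recovery with both probe sets was no more frequent near gene starts than over the whole lists. An even peak overlapped 82 of 177 odd peaks (46.3%, interval 39.1 to 53.7), where the background over all odd peaks was 47.6%. An odd peak overlapped 82 of 136 even peaks (60.3%, interval 51.9 to 68.1), where the background was 64.3%. Farther than 5000 bp from any start the shares were 47.8% and 65.0%. Height moved with overlap in both sets. Of odd peaks near starts, 25.9% of those with 3 tags, 44.1% of those with 4, 69.0% of those with 5 and 86.2% of those with 6 or more had an even partner. The even peaks gave 45.5%, 62.1%, 86.7% and 80.8%. The plot of overlap against pileup shows these shares beside those of distant peaks.

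**Figure D2:**
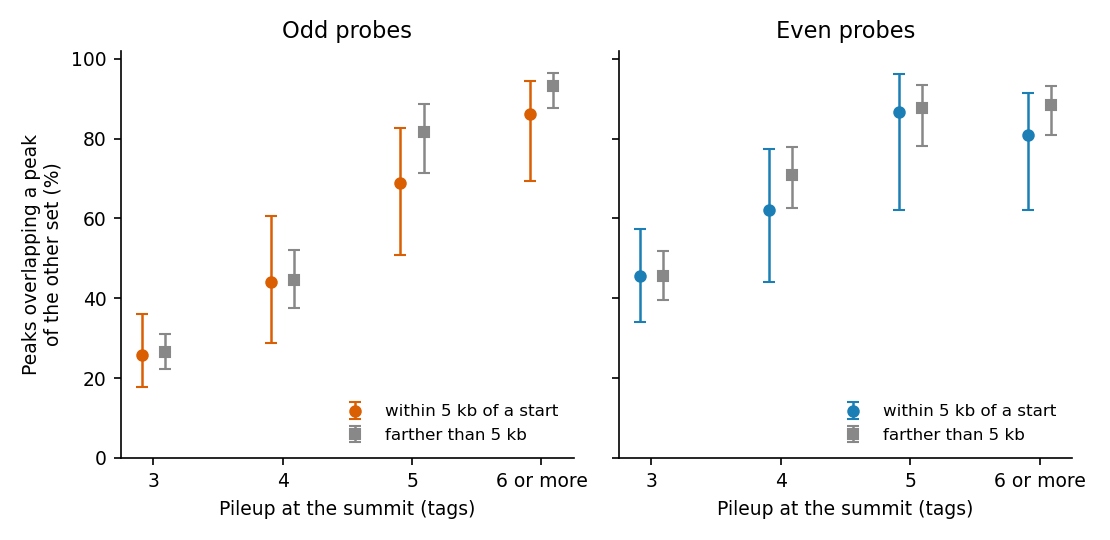
Percentage of peaks that overlapped a peak of the other probe set (vertical axis) by pileup at the summit in tags (horizontal axis), for odd (left) and even (right) probes. Coloured points are peaks within 5 kb of a gene start and grey points those farther away, with 95% Wilson intervals; at 3 tags the near peaks gave 25.9% (odd) and 45.5% (even).

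Where both sets found a site, they found almost the same bases. Of the 82 pairs, 30 began and 42 ended on the same base, 71 began and 75 ended within 2 bp of each other, and 66 had the same summit. The exceptions included the pair near Rpl37rt, whose starts differed by 124 bp, and the pair near Mir5616. The pileup was equal in 30 pairs, higher in the odd set in 32 and higher in the even set in 20, and 58 pairs differed by at most 1 tag, with a largest difference of 5. Over the 82 sites Spearman's rho of odd and even pileup was 0.65. This value is a description only, since both lists share the background library, the genome sequence and a minimum height, and sites below that height in 1 set are not in it.

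The highest sites found with both sets were led by Commd8 and Gm18428. Upstream of Commd8 the odd peak had 12 tags and the even peak 17 (fold enrichment 12.7 and 17.6), the tallest even peak of the list. Near Gm18428 the odd peak had 13 and the even peak 10 (13.7 and 10.8), so the order of the sets was the opposite one. Between Ubfd1, a ubiquitin-domain protein, and Ears2, the mitochondrial glutamyl-tRNA synthetase, a site 153 bp upstream of the Ubfd1 start lay in the coding part of an Ears2 exon and had 9 odd and 11 even tags. The next was in an exon of Rad9b, a relative of a DNA damage checkpoint protein, 315 bp inside the gene, with 11 odd and 8 even tags.

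Of the 20 highest such sites, 12 were nearest to a protein-coding gene, 7 lay within 500 bp of the start, and 17 held 1 of the recurring octamers at an end. Among all 82 sites found with both sets, these counts were 34, 14 and 61. The odd and even pileups at Tbc1d14, a regulator of autophagosome formation (276 bp upstream), were 7 and 7. In the first part of Vamp4, a SNARE protein of membrane fusion (3326 bp inside the gene), they were 6 and 6. Larp1b, a La-related RNA-binding protein, gave 7 and 8 at 3331 bp upstream of its start, and the peak near Mir7675, in an exon of Smc6, a subunit of a chromosome maintenance complex, gave 6 and 8. Col6a4, a collagen VI chain, had 8 odd and 5 even tags 178 bp upstream of its start, in an exon of the predicted gene Gm36993. In an intron of Brd8, a bromodomain subunit of a histone acetyltransferase complex, there were 7 and 5 tags. Most of these pairs differ by 2 tags or fewer, in either direction, and the plot of the highest shared sites shows no set that leads throughout.

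**Figure D3:**
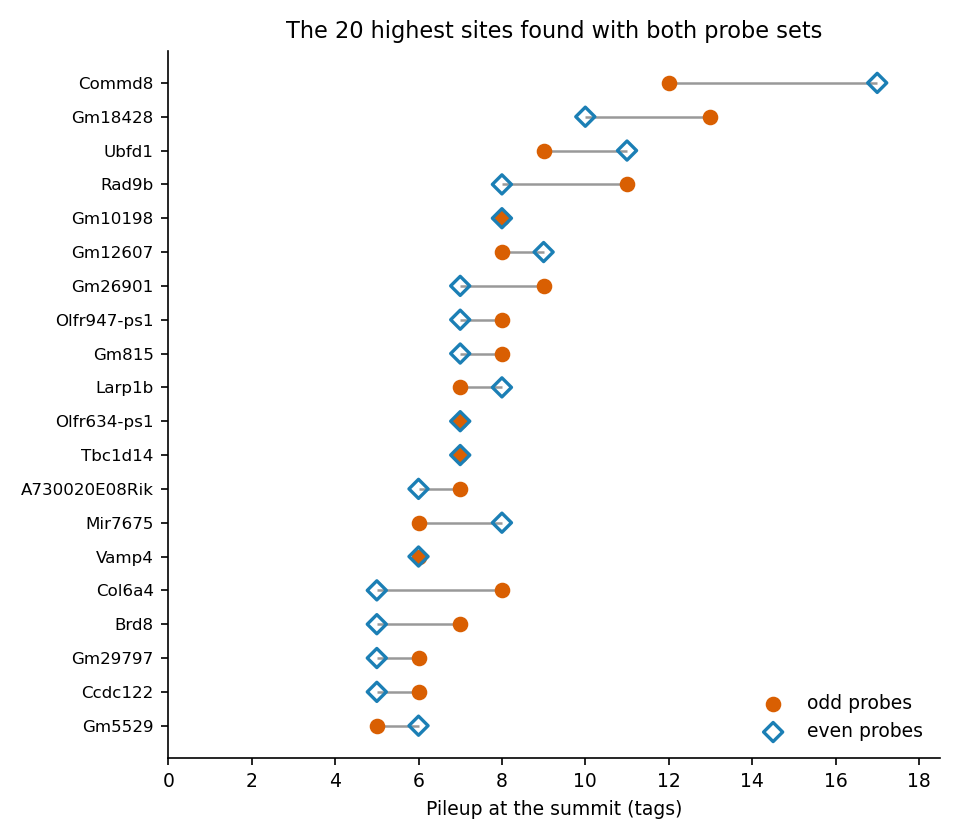
Pileup at the summit in tags (horizontal axis) of the 20 highest sites found with both probe sets, named for the nearest gene start, with odd probes as filled circles and even probes as open diamonds. Neither set is higher throughout: Commd8 had 12 odd and 17 even tags, and Gm18428 13 and 10.

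Sites closest to a gene start were low and came from 1 probe set each, as many sites farther out also did. Over all 231 sites, 41.1% came from the odd set alone and 23.4% from the even set alone. Only 3 tags stood at 48.0% of all odd and 48.5% of all even peaks near starts. All 7 sites within 100 bp had 3 or 4 tags, 5 of them even and 2 odd, and 5 lay in an untranslated part of an exon. The even peaks were at Ak8, an adenylate kinase, with 3 tags exactly at the start, and at Poll, DNA polymerase lambda, with 4 tags at 2 bp. Mrpl45, a protein of the mitochondrial ribosome, had 3 even tags at 40 bp, Map2k6, the kinase that activates p38, had 4 at 42 bp, and the pseudogene Tdpx-ps1 had 3 at 72 bp upstream. The odd peaks were at Gm42587 (3 tags, 69 bp) and at Pik3r3, a regulatory subunit of phosphoinositide 3-kinase (3 tags, 100 bp). Over the wider range of 500 bp, 14 of 23 odd peaks (60.9%, interval 40.8 to 77.8) and 14 of 24 even peaks (58.3%, interval 38.8 to 75.5) were paired, beside 44.2% of 154 odd and 60.7% of 112 even peaks from 501 to 5000 bp.

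The study's own promoter window, the 2000 bp upstream of a start, held 57 sites, 20 of them found with both sets, 19 with the odd set and 18 with the even set. A protein-coding gene was nearest to 23 of these, and both sets found 9. Those were Commd8, Ubfd1, Tbc1d14, Col6a4 and Gm29797 with the values above, and, outside the naming rule and named after their values were seen, Cfap52, Pgrmc2, Rnf180 and Snrpb. Of the 9 sites, 6 held a recurring octamer at an end, beside 61 of all 82 sites found with both sets. Both sets found 35.5% of all 231 sites and 35.8% of all sites nearest to a protein-coding gene. Whether the promoter window differs from these shares was not tested.

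Few sites of a single set were tall. In the even set alone, 7 sites had 5 tags or more, all 7 nearest to a protein-coding gene and 5 of them in introns. Of the 11 sites that followed with 4 tags, 8 were also nearest to a protein-coding gene. Over all sites, 41.1% were nearest to a protein-coding gene and 45.5% lay in introns. The sites picked by height are few, and a difference from these shares was not tested. Cbr3, a carbonyl reductase, had 10 even tags at 3458 bp inside the gene and no odd peak, and Cdrt4 had 7 at 3450 bp. Plod3, a lysyl hydroxylase of collagen, had 6 at 4268 bp upstream, within Znhit1, and the region upstream of Rhoa, a GTPase of the actin cytoskeleton, had 6 at 4319 bp, in the untranslated part of Amt. In the odd set alone, 4 sites had 6 tags or more and 9 had 5, and a protein-coding gene was nearest to 2 of the 4 and 3 of the 9. The 2 were Nfkbia, the inhibitor of NF-kappaB, with 7 odd tags at 3108 bp in its untranslated part, and Ptpn13, a tyrosine phosphatase, with 6 at 1706 bp upstream. A further odd peak of 6 tags lay in the coding exon of Neurod1, a neuronal transcription factor, 983 bp from the start of Gm26755.

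Of 206 genes in 11 lists, of which 205 were found in the annotation, 2 had a site (0.976% of those found, where 0.555% of all genes had one). The lists covered myogenic regulators, the Myc network and cell cycle, atrophy and FoxO or IGF signalling, mitochondrial dynamics and mitophagy, apoptosis, autophagy, TGF-beta and Wnt signalling, chromatin regulators, ribosomal proteins and, as other cell types, neuronal and hepatocyte genes. Max, the obligate partner of Myc, had 5 even tags and no odd peak at 697 bp inside the gene, in an intron. Lrp5, a Wnt co-receptor, had 3 odd tags and no even peak at 2961 bp, also in an intron. Neither site was counted as holding a recurring octamer at an end. The left end of the Max peak nevertheless held a run of G, and that of the Lrp5 peak held ATTTCCCC. In each case the octamer ran past the limit of the search at peak ends. None of the 22 myogenic regulators had a site, a list too short to read anything from at that background.

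Small RNA genes were near 19 sites, 7 of which both sets found (36.8%, beside 35.5% of all sites). Terc had 4 odd and 5 even tags, and the site 1420 bp upstream of Mir194-2, one of a pair of clustered microRNA genes with Mir192, had 5 and 5. Mir3971, in an intron of Slc43a2, had 4 odd and 3 even tags at 646 bp, and Mir5616, in an intron of Ctnnbip1, an inhibitor of beta-catenin, had 4 and 3 at 3828 bp upstream. The small nuclear RNA gene Gm26317 and the small RNA gene Gm24420 each had 3 and 3. An odd peak of 4 tags without an even partner lay in an exon of Hottip, a long non-coding RNA of the HoxA cluster, 312 bp from the start of the small RNA Gm27866.

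Peaks near starts had a higher median GC content than distant peaks. The median GC content was 46.3% in odd and 47.3% in even peaks near starts, and 42.9% in both sets farther away. The mean number of CpG dinucleotides, the pairs enriched at many mammalian promoters, was 1.13 and 1.46 per 100 bp near starts and 0.755 and 0.826 farther away. Within 500 bp of a start it was 2.19 in odd and 3.39 in even peaks. Over sites, the mean was 2.97 within 500 bp, 1.37 from 501 to 1000 bp and 0.958 beyond 2500 bp. The richest site was at Mrpl45, with 13.6 CpG per 100 bp, and 5 of the 33 sites within 500 bp had at least 5. These gradients describe where in the genome the peaks lie, and whether they differ from those of any other DNA at the same distances was not tested. Repeats, marked in lower case in the reference, covered over 50% of the bases in 35 odd (19.8%) and 35 even peaks (25.7%). Over all peaks the shares were 19.5% for odd and 23.5% for even. Among the tall sites named above, repeats covered 100% of the bases at Gm18428 and Larp1b and 96.7% at Rhoa. They covered 31.5% at Commd8, 14.8% at Ubfd1 and 2.67% at Vamp4.

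The recurring octamers seen above were at an end of more than 50% of the peaks. Within 15 bases of an end, 98 of 177 odd peaks (55.4%, interval 48.0 to 62.5) and 90 of 136 even peaks (66.2%, interval 57.9 to 73.6) held at least 1 of the 20, read inward from either end. The background over all peaks was 56.2% for odd and 65.8% for even, close to the shares near gene starts. That background includes the peaks outside this list, on which the octamers were chosen, so the comparison is not independent. The same search found an octamer in 3.00% of 2976849 windows of 147 bp laid end to end over all DNA within 5000 bp of gene starts. The commonest was TGATTTCC, in 61 of the 313 peaks (19.5%) and 0.140% of the windows, followed among these peaks by AGTGATTT (53 peaks, 0.115% of windows), GTGATTTC (52, 0.0902%), GATTTCCC (48, 0.0729%) and ATTTCCCC (41, 0.115%). Several of these overlap one another and can be parts of a single match. TTTTTTTT was in 34 peaks against 1.28% of windows, and GGGGGGGG in 21 against 0.219%. A match is a description of the letters and names no site for a factor.

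The octamers lay close to the peak end and read in either direction along the chromosome. The first base of TGATTTCC lay 1 to 10 bases inside the peak in 77 of 82 ends that held it within or near the peak end, most often at base 8 (18 ends). Of the 133 sites with an octamer, 132 had it at 1 end only, at the left end in 63 and at the right end in 69. It read in the direction of the nearest gene in 63 and against it in 69.

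**Figure D4:**
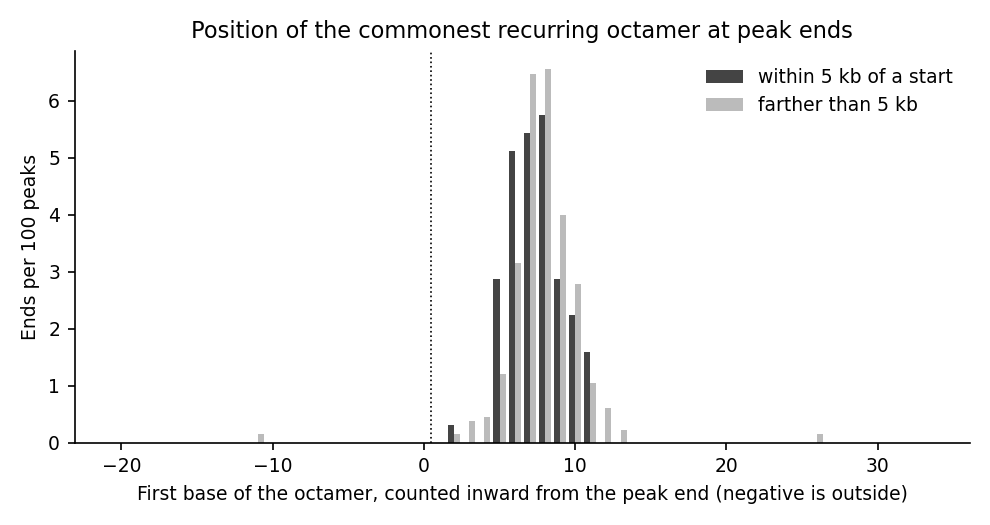
Peak ends that held TGATTTCC, the commonest recurring octamer, per 100 peaks (vertical axis) by the position of its first base counted inward from the peak end (horizontal axis, dotted line at the end), for peaks within 5 kb of a gene start (dark) and farther away (light). In both groups nearly all occurrences lie inside the end, most often at base 8 near starts.

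The end sequences moved with recovery by both sets. They were at 61 of 82 sites found with both sets (74.4%, interval 64.0 to 82.6), 42 of 95 odd-alone sites (44.2%, interval 34.6 to 54.2) and 30 of 54 even-alone sites (55.6%, interval 42.4 to 68.0). Seen from the peaks, 57.1% of odd peaks near starts with an octamer had an even partner and 32.9% of those without, and for even peaks the shares were 66.7% and 47.8%. Distant peaks gave 55.7% and 37.7% for the odd set and 67.9% and 59.3% for the even set. Peaks with an octamer were also somewhat taller, with a median of 4 tags against 3 in both sets near starts, so height and sequence moved together with overlap, and the part of each was not tested.

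Divided by their letters, 14 of the 20 octamers are of mixed bases, most of them around GTGATT or ATTTCC, and 6 hold only T and G. The mixed kind was at 45 of 82 sites found with both sets (54.9%, interval 44.1 to 65.2), 31 of 95 odd-alone sites (32.6%, 24.0 to 42.6) and 15 of 54 even-alone sites (27.8%, 17.6 to 40.9). The T and G kind was at 19.5%, 11.6% and 27.8% of these sites. Counted by single peaks, 40 odd and 44 even peaks of the 82 shared sites held the mixed kind. A run of 8 G was at 9 of 54 even-alone sites (16.7%, 9.02 to 28.7), beside 5 of 82 sites of both sets (6.10%, 2.63 to 13.5) and 4 of 95 odd-alone sites (4.21%, 1.65 to 10.3). The even-alone sites with the run include the 2 highest of that group, Cbr3 and Cdrt4, and also Plod3 and Ccdc137 with 6 tags each.

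**Figure D5:**
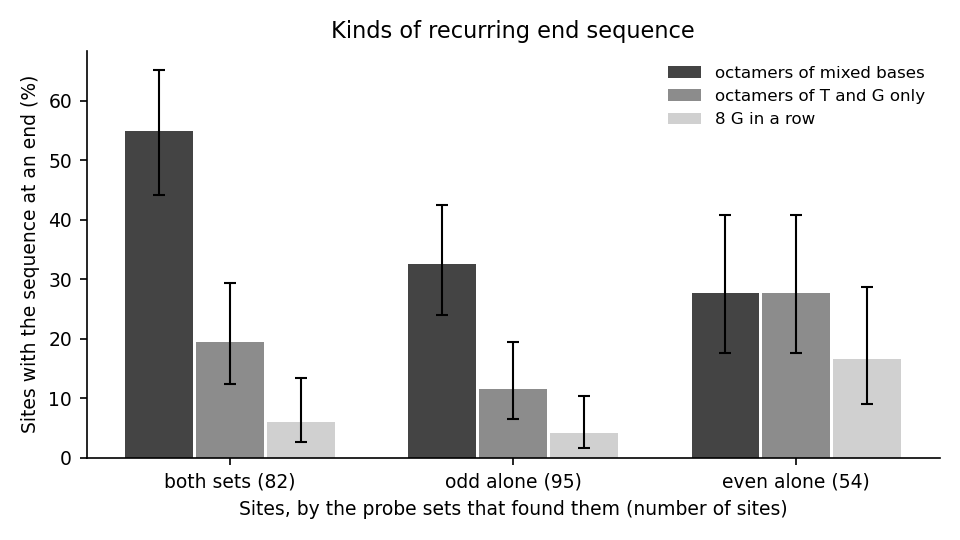
Percentage of sites with a recurring octamer at an end (vertical axis) for sites found with both probe sets, odd probes alone and even probes alone (horizontal axis, number of sites in parentheses), by kind of octamer, with 95% Wilson intervals. Octamers of mixed bases were at 54.9% of the shared sites, and runs of 8 G, part of the T and G kind, at 16.7% of the even-alone sites.

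Runs of bases shared with the probes were rare near gene starts. A run of 12 or more bases identical to a probe, on either strand, was in 3 of 177 odd peaks (1.69%, background 3.74%) and 3 of 136 even peaks (2.21%, background 3.78%), which made 4 sites. The same runs were in 0.389% of the windows within 5000 bp of gene starts. The longest are shown because the probe set of the match and that of the peak can be read against each other, with the probe first, the genome plus strand next, and the shared run in capitals. The even peak 4547 bp downstream of the Gm11446 start, with 3 tags and no odd partner, shared 18 bases with odd probe 3, at chr2:159854703-159854733.
Odd probe 3: CTTGAATTCTCAATGGCCac
Gm11446: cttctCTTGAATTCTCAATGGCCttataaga
The odd peak 3429 bp upstream of Gm11383, with 4 tags and no even partner, shared 17 bases with even probe 6, at chr13:33124716-33124745.
Even probe 6: ATTCTAGAGCCTTCAGGaag
Gm11383: ctttcATTCTAGAGCCTTCAGGtgtgctgt
The site upstream of Mir194-2, found with both sets, shared 15 bases with even probe 4, at chr19:6263172-6263199.
Even probe 4: TCTTAGGGTCAGTATcatgg
Mir194-2: accccTCTTAGGGTCAGTATtgatggca
The 2 longest runs, in peaks of 3 and 4 tags, matched a probe of the set that did not recover the peak. How often this held over the whole lists was not counted. In all 3 sites the run began at base 1 of the probe and 8 to 12 bases inside the left end of the peak. The fourth site, at Syt9, was found with both sets and shared 12 bases with odd probe 6.

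Sites in which no peak held an end octamer or such a run numbered 95, of which 20 were found with both sets, 52 with the odd set alone and 23 with the even set alone. Counted by peaks, 20 of the 77 odd peaks that held neither (26.0%, interval 17.5 to 36.7) and 20 of the 44 such even peaks (45.5%, interval 31.7 to 59.9) overlapped a peak of the other set that also held neither. The 20 shared sites were led by Col6a4 and Gm29797, and the others were picked out after their values were seen. A site in an exon of Iqgap1, a scaffold of the cytoskeleton, near Gm44649, had 5 odd and 7 even tags, and one 4530 bp inside Kif26a had 7 and 3. Pfkp, a phosphofructokinase of glycolysis, had 3 and 4 in an intron, Bcl11a, a zinc finger transcription factor, 3 and 3 in an intron, and Snrpb, a core protein of the spliceosome, 3 and 4 at 142 bp upstream of its start. The left end of the Pfkp site nevertheless held GATTTCCC, which ran past the limit of the search. Terc, Mir3971 and Mir5616 also remained. Of the 20 sites, 5 had 3 tags in both sets. This remainder depends on the limit of 15 bases: up to 25 bases inside the end, 29 of the 95 sites and 2 of the 20 held an octamer. There the shorter letters TTTCCC (also TTTGGG and TTTTTTTT) were in 66 of the 95 and 16 of the 20, a search chosen after the sequences were seen.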

How the data were processed

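Peaks came from 1 sample per probe set, called separately against the unprecipitated DNA. Per the labels' protocols, reads were aligned to mm10 with TMAP, and per the submitters' processing notes peaks were called with MACS2 2.1. The caller extended each tag to a fixed 147 bp, kept 1 tag per position and used a q-value cutoff of 0.05, per the file headers. Its effective genome size was 90000000, the preset for a nematode and not for mouse, which enters the caller's background estimate. The deposited pileup is a signal in extended tags, the deposited fold enrichment a ratio to the authors' background estimate, and the deposited −log10 q-value was used for 1 alternative only. The fold enrichment ranks peaks within a list, in nearly the order of their pileup.

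Gene starts were those of GENCODE mouse release 21 on GRCm38. The nearest start was measured from the summit, and a site was named for it. Octamers were ranked over peaks outside this list, within 15 bases of either end, and counted in windows of 147 bp over all DNA within 5000 bp of gene starts. Probe sequences came from the labels. Named were the 20 highest sites of both sets, the 8 highest of each set alone, sites of listed genes, within 100 bp of a start or near small RNA genes; equal heights were ordered by position, with chromosome names sorted as text. Members and lists were chosen with earlier results of these data known. Overlap and search code was tested on simulated data. Python 3.11.15, pandas 2.3.3, numpy 2.4.6, pysam 0.24.0 and matplotlib 3.10.9 were used. No test was made, and alternatives changed 1 choice at a time, except 1 that changed both the end sequences and the window.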

Additional observations from a re-analysis of the deposited data

How the results depend on the processing

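Depth set the limits: with 3 or 4 tags at most peaks and 1 sample per probe set, a site absent from a list may lie below its minimum height. Over 8 results and 10 alternatives, 58 of 79 values stayed within 1.5 times a count, within the interval of a share or at the same median, and 21 moved. The count of odd and even peaks near a start went from 177 and 136 to 77 and 59 within 2000 bp, to 287 and 226 within 10000 bp, to 82 and 73 with protein-coding genes only, to 58 and 41 with a pileup of at least 5 tags, and to 77 and 44 without peaks that hold an end octamer or a probe match. Without the latter peaks the shares overlapping the other set were 26.0% (odd) and 45.5% (even) and the median pileups 3 and 3. With at least 5 tags required of both a peak and its partner, the even share was 73.2%. The medians at 5 or more tags, raised by the filter itself, were 5.5 (odd) and 6 (even). The even median was 3 within 2000 bp. The upstream share was 40.9% with protein-coding genes only. The share of sites with an end octamer was 47.6% within 2000 bp and 69.6% at 5 or more tags. Under 2 alternatives chosen after seeing the data it was 70.1% up to 25 bases inside the peak, and 76.6% for TTTCCC (also TTTGGG and TTTTTTTT) there, which were in 4.15% and 7.28% of windows near gene starts. Where no construction of the alternative shows the cause, the cause was not tested. No paired analysis was possible because each probe set has 1 sample and the groups share only replicate number 1.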
